A study of Homo sapiens with 2 samples.

Results

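The 40 genes described here encode proteins of DNA replication and of mitosis, and were picked by symbol from the 33694 genes of the count tables. Of these, 15 belong to S phase (MCM2, MCM3, MCM4, MCM5, MCM6, MCM7, CDC6, GMNN, GINS2, PCNA, TYMS, RRM2, RAD51AP1, E2F1 and CENPU). The other 25 belong to G2 and mitosis (MKI67, TOP2A, CDK1, PBK, UBE2C, AURKA, AURKB, CENPE, CENPF, CENPM, ASPM, DLGAP5, CDCA8, NUSAP1, TPX2, CCNA2, CCNB1, CCNB2, BIRC5, ZWINT, NCAPG, CDC20, BUB1, PLK1 and UBE2S). All 40 symbols were found once. They were followed in single cells of enhanced beta clusters (eBCs), insulin-producing clusters made in culture from human embryonic stem cells, and compared between cycling endocrine cells, duct-like cells and resting endocrine cells.

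Both libraries came from the iSOX9KO line, a derivative of the MEL-1 line that carries GFP at the insulin gene. In iSOX9KO, doxycycline (DOX) switches on Cas9 through rtTA expressed from a CAG promoter, and guides against SOX9 are expressed from U6 promoters. One library came from eBCs without DOX and 1 from eBCs given DOX at 2 ug/ml from day 12 of differentiation, before endocrine cells are specified; both carry the cassette, and the methods describe work on a single clone. The clusters were reassembled from sorted GFP-high cells, that is, from cells in which the insulin gene was on. SOX9, the targeted gene, stood at 3.02 UMIs per 1000000 UMIs (CPM; 95% interval 2.83 to 3.22) over the named classes of the no-DOX-labelled library and at 3.81 CPM (3.59 to 4.04) in the DOX-labelled library. It was therefore not lower in the DOX-labelled library, although Cas9 cuts need not lower a UMI count, and each library keeps the name its label gave it. Whether the labels are the right way round could not be settled from these counts, and the direction of every DOX over no DOX value below rests on them. With 1 library per condition there was no replicate check and no test was made. CPM counts UMIs and is not scaled by gene length, so it compares cells rather than genes. All intervals given are 95% intervals that cover counting error only.

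In S phase, the hexameric MCM helicase that CDC6 has helped load in G1 unwinds DNA together with the GINS complex, while PCNA holds the polymerases on their template and TYMS and RRM2 supply deoxynucleotides. After S phase, cyclin A and cyclin B with CDK1, the Aurora and Polo kinases and the spindle proteins drive the cell through mitosis, and UBE2C, UBE2S and CDC20 work with the anaphase-promoting complex to end it. The S phase genes are classical targets of E2F factors, and many mitotic genes are regulated through a promoter element called the cell cycle genes homology region (CHR), usually near CCAAT boxes bound by NF-Y. Proliferation is common in pancreatic progenitors and rare in hormone-positive cells.

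The 200 bases before the RefSeq start of 7 members with such elements, and of GMNN without any, are shown to let the promoter letters of the S phase and the G2/M genes be compared. They are written 5′ to 3′ on the strand of the gene, from GRCh38.p14. Capitals mark letter matches, on either strand, to TTTGAA or TTCGAA (called CHR here), to CCAAT, or to TTTCGCGC, TTTGGCGC, TTTCCCGC or TTTGCCGC (called E2F here), and overlapping matches run together.
MCM6 at chr2:135876444-135876643, minus strand: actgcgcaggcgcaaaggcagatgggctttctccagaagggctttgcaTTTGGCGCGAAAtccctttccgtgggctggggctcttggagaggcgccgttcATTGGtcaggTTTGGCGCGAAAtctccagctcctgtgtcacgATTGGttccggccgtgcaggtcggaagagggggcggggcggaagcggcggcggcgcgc
E2F1 at chr20:33686386-33686585, minus strand: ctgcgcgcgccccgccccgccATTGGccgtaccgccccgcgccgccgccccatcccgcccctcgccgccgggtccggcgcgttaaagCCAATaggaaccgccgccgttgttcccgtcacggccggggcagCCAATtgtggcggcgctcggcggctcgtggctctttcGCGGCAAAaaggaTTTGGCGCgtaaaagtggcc
PCNA at chr20:5126623-5126822, minus strand: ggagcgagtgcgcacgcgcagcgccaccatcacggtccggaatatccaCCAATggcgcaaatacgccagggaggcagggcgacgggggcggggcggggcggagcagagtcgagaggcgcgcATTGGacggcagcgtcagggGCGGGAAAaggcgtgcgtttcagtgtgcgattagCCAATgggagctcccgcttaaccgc
CCNB2 at chr15:59104946-59105145, plus strand: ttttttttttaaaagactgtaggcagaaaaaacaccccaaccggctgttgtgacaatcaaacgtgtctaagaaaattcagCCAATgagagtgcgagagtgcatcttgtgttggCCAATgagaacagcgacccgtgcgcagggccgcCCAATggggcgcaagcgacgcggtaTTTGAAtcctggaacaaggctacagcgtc
PLK1 at chr16:23678689-23678888, plus strand: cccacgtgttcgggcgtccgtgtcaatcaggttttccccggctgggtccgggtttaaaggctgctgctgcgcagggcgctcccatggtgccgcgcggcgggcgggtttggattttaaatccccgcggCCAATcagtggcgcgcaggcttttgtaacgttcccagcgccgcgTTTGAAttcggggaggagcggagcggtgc
CDC20 at chr1:43358781-43358980, plus strand: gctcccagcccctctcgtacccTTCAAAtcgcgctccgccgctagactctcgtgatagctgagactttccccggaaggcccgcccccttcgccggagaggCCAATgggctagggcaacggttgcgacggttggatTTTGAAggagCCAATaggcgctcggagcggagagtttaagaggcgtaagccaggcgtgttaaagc
TOP2A at chr17:40417897-40418096, minus strand: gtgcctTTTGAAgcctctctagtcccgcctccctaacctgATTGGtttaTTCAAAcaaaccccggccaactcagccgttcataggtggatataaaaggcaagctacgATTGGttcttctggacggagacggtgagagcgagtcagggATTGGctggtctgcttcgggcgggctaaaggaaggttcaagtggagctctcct
GMNN at chr6:24774737-24774936, plus strand: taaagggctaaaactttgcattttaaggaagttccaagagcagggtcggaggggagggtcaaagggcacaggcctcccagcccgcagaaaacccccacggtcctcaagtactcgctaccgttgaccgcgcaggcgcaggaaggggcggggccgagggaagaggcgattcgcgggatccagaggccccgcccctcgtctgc

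MCM6, E2F1 and PCNA hold E2F letters and no CHR letters in these windows, whereas CCNB2, PLK1, CDC20 and TOP2A hold CHR and CCAAT letters and no E2F letters. GMNN holds none of them. Of the 40 members, 32 (13 S phase and 19 G2/M genes) had a promoter in the RefSeq table, here 250 bases before to 50 after the start, out of 27305 promoters. E2F letters were in 10 of 13 S phase promoters (76.9%), 2 of 19 G2/M promoters (10.5%, CDK1 and NUSAP1) and 3.33% of all promoters. CHR letters were in 14 of 19 G2/M promoters (73.7%), 1 of 13 S phase promoters (7.69%, MCM6, further from the start than the window shown) and 16.6% of all promoters. CCAAT, which needs fewer letters, was in 10 of 13 and 17 of 19, against 35.7% of all, and CHR with CCAAT was in 13 of 19 G2/M promoters against 6.58% of all. A letter match describes the sequence and is not a binding site, and a window without one says nothing of the factor.

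The cells fell into 7 clusters, formed without the 40 members. The cycling endocrine cluster held 931 of 44921 cells kept (461 in the no-DOX-labelled library and 470 in the DOX-labelled library), the duct-like cluster 332 (154 and 178), and the 4 resting endocrine clusters together 41335 (cells like alpha, beta and delta cells and beta cell progenitor-like cells). Median depth was 16550 UMIs per cell in cycling, 14516.5 in duct-like and 13513 in resting endocrine cells. The cycling and duct-like clusters were named by lists of 51 other cell cycle genes, none of them a member, and of 13 duct markers, so the levels of these lists describe the names and do not check them. In the cycling cells 50 of the 51 were at least 2-fold above the other cells. CHGA, a granule protein of endocrine cells, stood at 15048 and 13948 CPM there (no DOX and DOX), beside 15547 and 14451 in resting endocrine cells and 1436 and 1508 in duct-like cells. INS stood at 96257 and 83863 CPM in the cycling cells, below the 151204 and 147919 of all resting cells together. Among these, beta cell progenitor-like cells were lower than the cycling cells, at 71157 and 59785 CPM. In duct-like cells INS stood at 19537 and 14955 CPM, and the part of free RNA in this was not tested. Of the 13 duct markers, all were at 5 CPM or more in the duct-like cells, with a sum of 8957 CPM, against 498 CPM in cycling and 582 CPM in resting cells. In the duct-like cells 12 of the 13 were at least 2-fold above the other cells. KRT8 (2158 CPM) and KRT18 (2775 CPM) gave most of the sum. KRT19 stood at 278 CPM, beside 192 CPM in resting cells and 256 CPM in the beta-like cells among them. All 3 endothelial markers were at 0 in cycling and duct-like cells, and the 3 immune markers summed to 12.4 CPM in cycling and 4.29 CPM in duct-like cells, almost all of it CD68.

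A last cluster of 2323 shallow cells with mostly mitochondrial UMIs was left unnamed and not used. The libraries shared 369 barcodes, which marked 8 of the 931 cycling cells and none of the duct-like cells, and without them the counts of members below were the same. Free RNA puts UMIs into cells that do not make a transcript. Beta-like cells, which are mostly resting, are the comparison level for each statement on cells with member UMIs. The part of free RNA in the member UMIs of beta-like cells was not tested.

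All 40 members were higher in cycling than in resting endocrine cells, by at least 2-fold in each library. Over all 11139 genes tested, 10.4% were higher by this rule. The median log2 ratio was 6.81 over the members (5.05 for S phase and 7.85 for G2/M genes) and 0.11 over all genes tested. The extremes were ASPM, a spindle pole protein, with log2 9.06 (8.85 to 9.28), and UBE2S, with 2.60 (2.57 to 2.63). All 40 were also higher in duct-like than in resting endocrine cells, where 17.7% of 11719 genes were, with a median log2 ratio of 5.76 (3.81 for S phase and 6.76 for G2/M genes). The clusters were formed on genes that vary with the members, so these ratios describe the cells and test nothing.

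**Figure D1:**
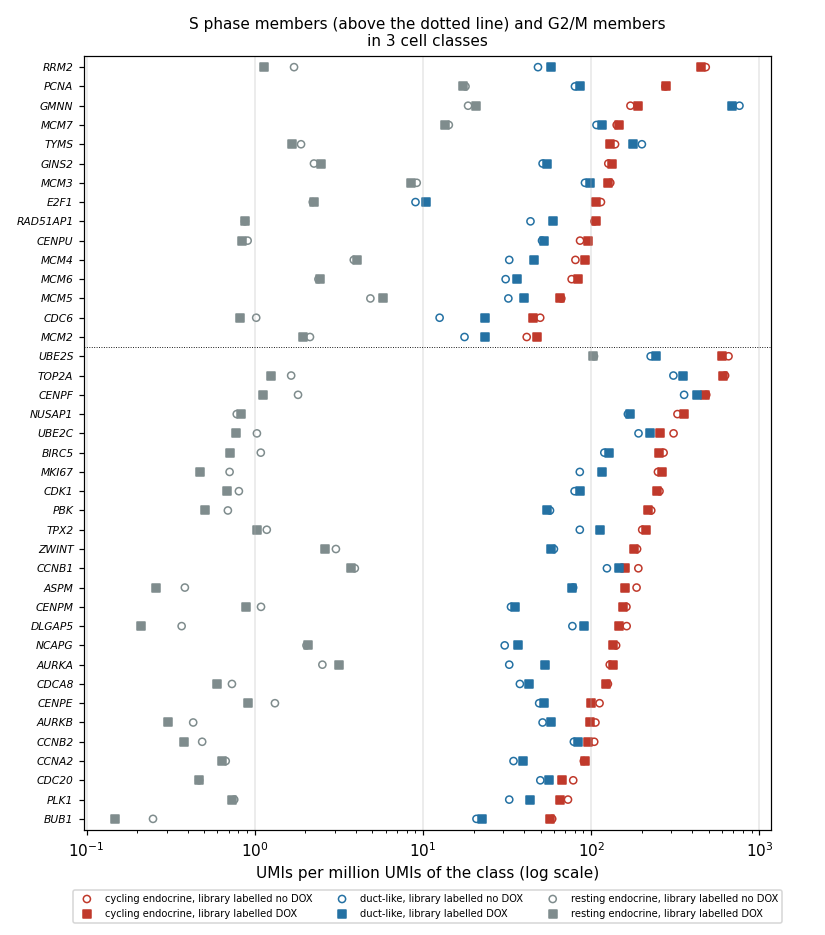
Level of each of the 40 members in CPM, on a log axis, in cycling endocrine, duct-like and resting endocrine cells, with open circles for the no-DOX-labelled library and filled squares for the DOX-labelled library. Every member lies higher in the cycling and duct-like cells than in the resting cells, and GMNN lies higher in the duct-like than in the cycling cells.

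Among the licensing and helicase genes, the MCM subunits formed a narrow group. In cycling cells MCM7 stood at 142 and 147 CPM (no DOX and DOX), MCM3 at 129.9 and 126, MCM4 at 80.6 and 92.2, MCM6 at 76.5 and 83.6, MCM5 at 66.4 and 64.9 and MCM2 at 41.4 and 47.3. In resting cells the same subunits lay between 2.04 CPM for MCM2 and 13.9 CPM for MCM7 with both libraries summed. The part of free RNA in these low levels was not tested. The ratios of the subunits, 10.4-fold for MCM7 to 33.1-fold for MCM6, were small for members. CDC6, the loading factor, was at 49.8 and 45.1 CPM in cycling and 0.923 CPM in resting cells. GINS2, a GINS subunit, was at 126 and 132 CPM in cycling and 2.36 CPM in resting cells, which is the largest ratio of the licensing genes (54.8-fold).

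GMNN, the inhibitor that blocks a further round of licensing, went the other way between the cycling and duct-like classes. Its level was 761 and 683 CPM in the duct-like class, compared with 171 and 189 CPM in the cycling and 18.5 and 20.7 CPM in the resting class. It was the single member at least 2-fold lower in cycling than in duct-like cells in each library (log2 −2.00, −2.07 to −1.93), where 11.3% of all genes were. GMNN made up 45.8% of the S phase UMIs of duct-like cells and 8.60% of those of cycling cells. The study used high GMNN, with HES1, to define a ductal or progenitor population in these same libraries. The high GMNN level of the duct-like class is therefore a description of that class and tests nothing.

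The genes of DNA precursors and of the fork were among the strongest and the weakest S phase genes. RRM2, the small subunit of ribonucleotide reductase, stood at 479.7 and 449 CPM in cycling cells, 48.3 and 57.7 CPM in duct-like cells and 1.71 and 1.13 CPM in resting cells. It was 326-fold higher in cycling than in resting cells, more than any other S phase member. PCNA was at 276 and 279 CPM in cycling cells and kept 17.9 and 17.4 CPM in resting cells, a ratio of 15.7-fold. TYMS, thymidylate synthase, was at 139 and 129.9 CPM in cycling cells but reached 200.1 and 178 CPM in duct-like ones. Beside GMNN it was the one member with a lower level in cycling than in duct-like cells (log2 −0.48, −0.59 to −0.38). RAD51AP1, a recombination factor, was at 106 CPM in cycling and 52.0 CPM in duct-like cells, and CENPU, a centromere protein counted with the S phase genes, at 90.7 and 51.6 CPM. E2F1, the transcription factor of this set, had the largest ratio of cycling over duct-like cells among the members: it stood at 114 and 107 CPM in cycling cells, 9.03 and 10.5 CPM in duct-like cells and 2.21 and 2.26 CPM in resting cells.

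The G2/M genes were near 0 in resting cells. Of the 25, 24 lay between 0.199 CPM (BUB1, a checkpoint kinase) and 3.83 CPM (CCNB1) there, while UBE2S lay at 104 CPM. In cycling cells the members with most UMIs were UBE2S (655 and 601 CPM), TOP2A (625 and 604 CPM), the topoisomerase that untangles sister chromatids, and CENPF (483 and 472 CPM), a kinetochore protein. Among the chromosome and passenger complex genes, MKI67 stood at 249 and 264 CPM, BIRC5 at 269 and 253, NCAPG at 141 and 134, CDCA8 at 126 and 122 and AURKB at 106 and 98.4 CPM in cycling cells. The spindle genes had the largest ratios over resting cells as a group. ASPM was 535-fold, DLGAP5 531-fold, NUSAP1 425-fold and TPX2 187-fold higher.

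The cyclins and kinases ranged from 58.0 CPM for BUB1 to 251 CPM for CDK1 in cycling cells with both libraries summed. CDK1, the kinase of mitotic entry, was 337-fold above resting cells, PBK 371-fold, CCNB2 230.0-fold, CCNA2 139.7-fold and PLK1 93.5-fold. AURKA and CCNB1, at 2.83 and 3.83 CPM in resting cells, had the smallest ratios of this group (46.5-fold and 45.8-fold). Of the kinetochore genes, CENPF was 325-fold, CENPM 160.0-fold, CENPE 94.5-fold and ZWINT 64.8-fold higher in cycling than in resting cells. UBE2C and CDC20, which act on the anaphase-promoting complex, were 314-fold and 156-fold higher, against 6.08-fold for UBE2S.

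UBE2S therefore differed from the rest through its level in resting cells. It was at 103.9 and 103 CPM there and made up 79.7% of all G2/M UMIs of resting cells, against 11.7% in cycling cells. UBE2S lies at chr19:55399745-55407788 on the minus strand (GRCh38, GENCODE 44) and overlaps RPL28, a ribosomal protein gene, on the opposite strand. Of the 40 members, 11 overlap a gene on the opposite strand and none overlaps one on the same strand. Whether the counting used the strand is not given in the sources used here, so UMIs of RPL28 within UBE2S were not told apart.

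Cycling endocrine and duct-like cells both expressed the whole set, at unequal levels. By the 2-fold rule, 19 members were higher in cycling cells (7 of 15 S phase and 12 of 25 G2/M genes), where 17.3% of all 11807 genes were. The median log2 ratio was 1.09 over the members and 0.16 over all genes. E2F1 (3.49, 3.11 to 3.91) and RRM2 (3.12, 2.96 to 3.29) led, followed by CENPM (2.20, 1.99 to 2.42), NCAPG (2.02, 1.81 to 2.24) and PBK (2.00, 1.84 to 2.18). At the other end, CENPF (0.28, 0.21 to 0.35), CCNB2 (0.30, 0.15 to 0.45), MCM7 (0.36, 0.23 to 0.49) and CCNB1 (0.37, 0.25 to 0.49) were within 1.5-fold. In the no-DOX-labelled library alone, 29 members passed the rule, and 20 did in the DOX-labelled library alone. A rule on 1 library is easier to pass, and the share of all genes passing it was not counted. The 29 and 20 can therefore not be set beside the 17.3%.

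Summed over the genes of a phase, the cycling and the duct-like class both held more G2/M than S phase UMIs. In cycling cells the S phase genes summed to 2083 and 2094 CPM (no DOX and DOX) and the G2/M genes to 5506 and 5249 CPM. The log2 ratio of S phase over G2/M was −1.37 (−1.38 to −1.35) in cycling, −0.76 (−0.79 to −0.72) in duct-like and −0.63 (−0.64 to −0.61) in resting cells. These ratios turned on GMNN and UBE2S. Without both genes, a choice made after the values were seen, the ratio was −1.32 in cycling and −1.51 in duct-like cells, so that their order turned round, and 1.29 in resting cells, where its direction turned.

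**Figure D2:**
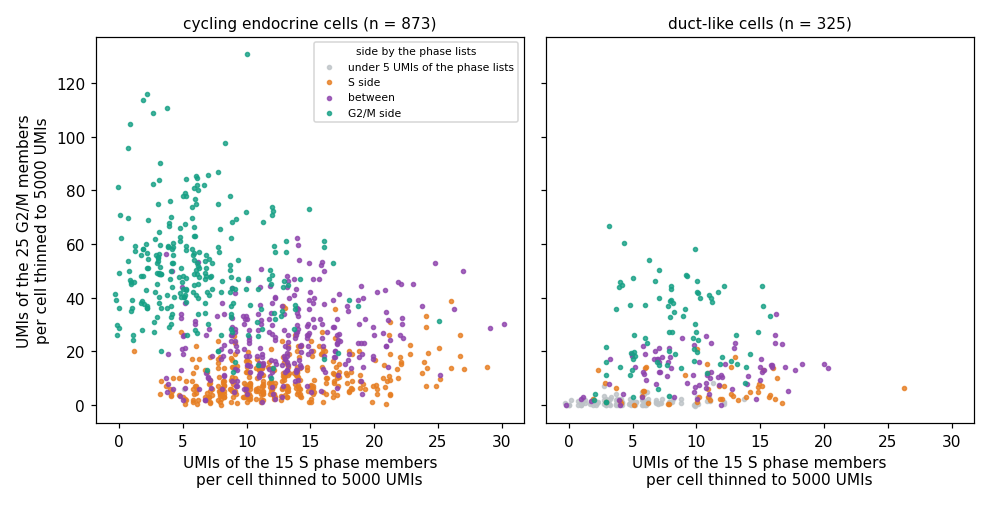
UMIs of the S phase members against UMIs of the G2/M members in single cells thinned to 5000 UMIs, with 873 cycling endocrine cells in the left and 325 duct-like cells in the right panel, coloured by the side on which other cell cycle genes put the cell. Cycling cells spread over both axes, and duct-like cells with fewer than 5 UMIs of those genes lie near 0 on the G2/M axis and reach further along the S phase axis.

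To compare single cells at equal depth, each cell was thinned to 5000 UMIs, which left out 58 cycling, 7 duct-like and 662 beta-like cells that were shallower. UMIs of at least 3 members were then found in 873 of 873 cycling cells (100%, 99.6 to 100) and in 272 of 325 duct-like cells (83.7%, 79.2 to 87.5). In beta-like cells they were found in 390 of 16231 (2.40%, 2.17 to 2.65). Before thinning the shares were 100%, 94.3% and 27.4%, at median depths of 16550, 14516.5 and 15946 UMIs. A median cycling cell held UMIs of 19 members and the highest held 32, a median duct-like cell held 10 and a median resting cell 1. The duct-like share was 78.4% in the no-DOX-labelled library and 88.1% in the DOX-labelled library.

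Cells were also placed by other cell cycle genes, 25 of S phase and 26 of G2/M, that hold no member. At least 5 UMIs of these lists were found in 871 of 873 cycling cells, in 212 of 325 duct-like cells (65.2%, 59.8 to 70.4) and in 496 of 38864 resting cells (1.28%, 1.17 to 1.39). The duct-like class therefore held cells above and below this limit side by side, while nearly every cell of the cycling cluster, which these lists named, passed. Of the duct-like cells below it, 94 held some UMIs of these lists and 19 held none. A cell was put on the S side where at least 2 in 3 of these UMIs were of the S list and on the G2/M side where at most 1 in 3 were. Of the 871 cycling cells, 343 lay on the S side (39.4%, 36.1 to 42.7), 274 between and 254 on the G2/M side (29.2%, 26.2 to 32.3), with 82, 68 and 30 of them near a limit.

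In cycling cells the S side over G2/M side ratios of 12 of 15 S phase members had intervals above 0, where those of 15.3% of 11379 genes did, and 23 of 25 G2/M members had intervals below 0, where 10.2% did. MCM5 (log2 S side over G2/M side 3.03, 2.36 to 3.77), MCM6 (3.01, 2.36 to 3.73) and CDC6 (2.93, 2.14 to 3.84) leaned most to the S side. PLK1 leaned most to the G2/M side, with 7 UMIs on the S side and 220 on the other (−5.41, −6.74 to −4.34), before CCNB1 (−4.29, −4.78 to −3.83), DLGAP5 (−3.97, −4.48 to −3.49) and CENPE (−3.92, −4.53 to −3.37). E2F1 (2.49, 2.00 to 3.01) lay among the MCM genes, which ran from 1.41 for MCM7 to 3.03 for MCM5.

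Some members did not lean the way of their list. RRM2, listed with S phase, was higher on the G2/M side (−0.67, −0.85 to −0.50), and the intervals of RAD51AP1 (−0.051, −0.38 to 0.28) and CENPU (0.36, −0.019 to 0.75) held 0. Of the G2/M list, CENPM (0.094, −0.20 to 0.39) and ZWINT (−0.11, −0.37 to 0.15) were at near equal levels on both sides, and NCAPG leaned little (−0.67, −0.96 to −0.39). GMNN was higher on the S side in cycling cells (0.80, 0.52 to 1.08), whereas in duct-like cells its interval held 0 (−0.25, −0.53 to 0.02). The G2/M members summed to 1972 CPM on the S side and 10198 CPM on the G2/M side of cycling cells, a wider gap than that of the S phase members, which summed to 2529 and 1229 CPM.

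**Figure D3:**
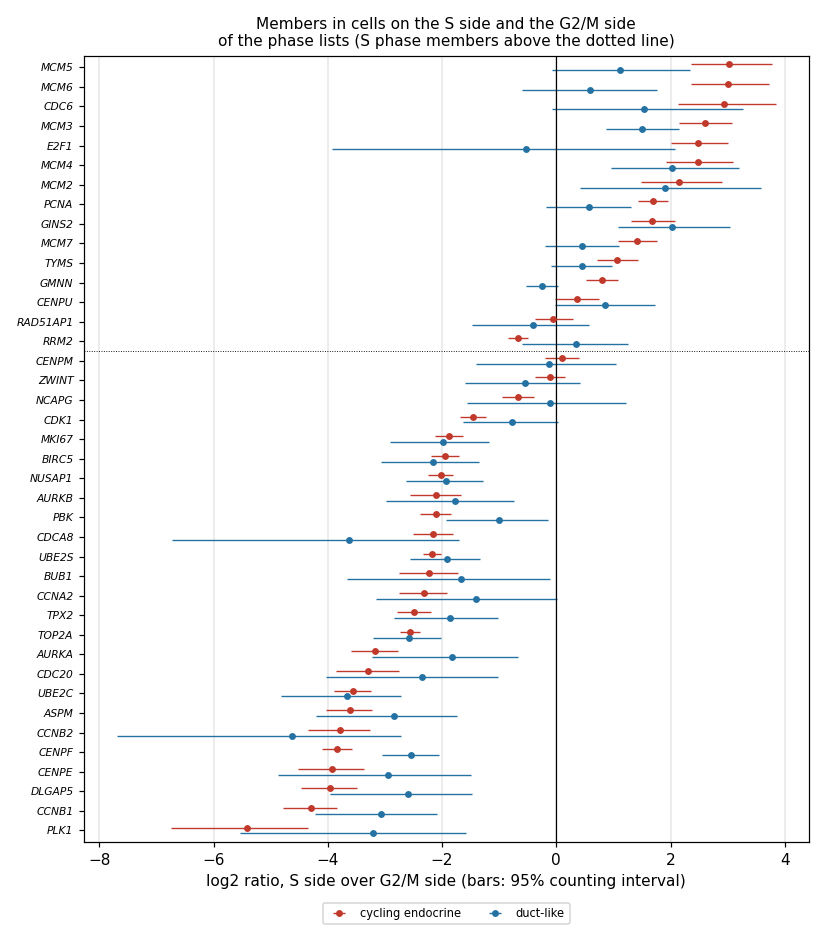
Log2 ratio of the level on the S side over the level on the G2/M side for each member in cycling endocrine and in duct-like cells, with 95% intervals for counting error. In cycling cells the MCM genes, CDC6 and E2F1 lie to the S side, PLK1, CCNB1, DLGAP5 and CENPE lie furthest to the G2/M side, and RRM2 lies with the G2/M genes. In duct-like cells the intervals are wide, CCNB2 (−4.62), UBE2C (−3.67) and CDCA8 (−3.64) lie furthest to the G2/M side, and E2F1, with 2 and 5 UMIs, lies below 0.

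In duct-like cells, with 48 cells on the S side, 81 between and 83 on the G2/M side, 20 of 25 G2/M members had intervals below 0, where 3.36% of 10795 genes did. The G2/M sum leaned about as far as in cycling cells (log2 −2.22, beside −2.37). The S phase sum leaned less (0.40, beside 1.04), but without GMNN, a choice made after the values were seen, it was at 0.84 (0.62 to 1.06) beside 1.07 (0.98 to 1.15) in cycling cells. Of its members, 4 of 15 had intervals above 0, where 2.75% of genes did. MCM4 (2.03, 0.97 to 3.20) and GINS2 (2.03, 1.09 to 3.04) leaned most, before MCM2 (1.91, 0.41 to 3.59). Few UMIs stood behind these values (26 and 11 for MCM4, 33 and 14 for GINS2), so smaller shifts were not detectable at this depth.

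The comparison of duct-like with cycling cells was repeated in cells with at least 5 UMIs of the phase lists, so that both classes were held to the same limit. Intervals lay below 0 for 30 members, above 0 for 3 and over 0 for 7, where 30.0% of 11846 genes lay below and 21.7% above 0. GMNN stood at 761 CPM in the 212 such cells of the duct-like class, against 189.7 CPM in 871 cycling cells (log2 2.01, 1.86 to 2.15), TYMS at 246 and 130.0 CPM (0.92, 0.71 to 1.14) and CENPF at 534 and 467 CPM (0.19, 0.06 to 0.33). The 7 members with intervals over 0 were MCM3, MCM7, UBE2C, CCNB1, CCNB2, CDC20 and PLK1. E2F1 had the lowest ratio, at 9.43 against 119.9 CPM (−3.67, −4.74 to −2.78), followed by RRM2 (−2.55, −2.88 to −2.23), NCAPG (−2.00, −2.50 to −1.53), CENPM (−1.63, −2.07 to −1.22) and PCNA (−1.50, −1.79 to −1.21). The make-up by phase differed between these cells, with 39.2% of the duct-like and 29.2% of the cycling cells on the G2/M side. Within that side the values were lower in duct-like cells for CCNB1 (313 and 468 CPM, log2 −0.58, −0.86 to −0.30), UBE2C (−0.41, −0.64 to −0.18), CDC20 (−0.83, −1.33 to −0.36), CCNB2 (−0.37, −0.73 to −0.026), and PLK1 (−0.58, −1.06 to −0.13). MCM3 (1.22, 0.54 to 1.89), MCM7 (0.68, 0.14 to 1.19) and MCM6 (1.13, 0.068 to 2.15) were higher there, and for MCM6 the direction turned from that over all such cells (−0.95). CENPF was lower on the G2/M side (−0.28, −0.44 to −0.11) and higher on the S side (1.02, 0.47 to 1.55), with an interval over 0 between the sides (−0.25 to 0.32). GMNN (2.73, 2.45 to 3.01), TYMS (1.22, 0.75 to 1.68) and RRM2 (−2.89, −3.51 to −2.32) kept their direction on the G2/M side, on the S side and between them, and E2F1 was nearer to 0 on the G2/M side (−1.35, −3.05 to −0.0056) than over all such cells. Members lower over all such cells whose intervals held 0 on the G2/M side were PCNA (−1.02 to 0.094), MCM2, MCM4, MCM5, CDC6, GINS2, RAD51AP1, CENPU and AURKB. On the S side the intervals of PCNA (−1.57, −2.15 to −1.04), MCM5, CDC6 and RAD51AP1 lay below 0, and those of the others held 0. Between the sides the intervals of all of these but RAD51AP1 lay below 0. MCM6 lay below 0 on the S side (−1.30, −2.23 to −0.49) and between the sides (−0.95, −1.71 to −0.27). For the values within a side, the share of all genes above or below 0 was not counted. They therefore describe single members and cannot be set beside a background.

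**Figure D4:**
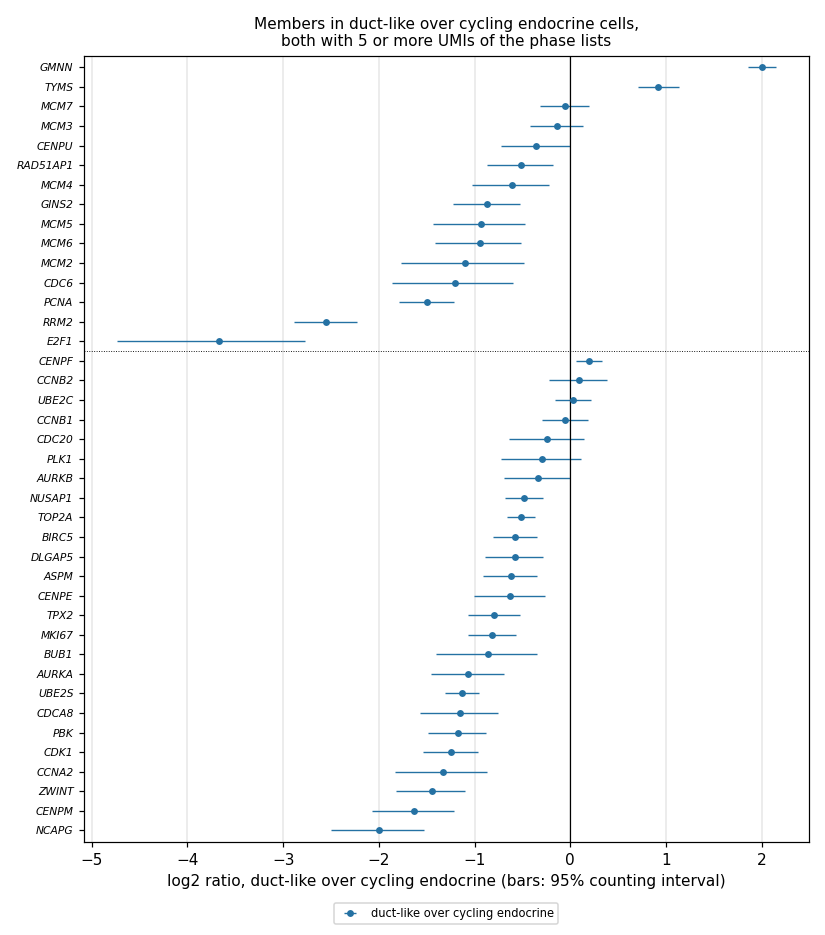
Log2 ratio of duct-like over cycling endocrine cells for each member, in cells with at least 5 UMIs of the phase lists, with 95% intervals for counting error. GMNN, TYMS and CENPF lie above 0, the intervals of the B cyclins and UBE2C hold 0, and E2F1 and RRM2 lie lowest.

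The 113 duct-like cells with fewer than 5 phase UMIs kept part of the set. GMNN stood at 642 CPM in them and at 21.3 CPM in 38368 resting endocrine cells chosen the same way (log2 4.92, 4.76 to 5.07). TYMS stood at 63.7 and 1.58 CPM (5.33, 4.79 to 5.84). Both genes were therefore high in duct-like cells with few UMIs of the phase lists. The S phase members summed to a log2 ratio of 3.53 and the G2/M members to 0.87, an order that turned round without GMNN and UBE2S (2.29 and 2.73), a choice made after the values were seen. Of the 40, 5 members (CDC6, AURKB, CDCA8, NCAPG and BUB1) had no UMI in these duct-like cells, which allows up to 5.31 CPM at a limit of 3 UMIs. UBE2S was at 83.2 CPM in them and 108 CPM in resting cells.

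Resting endocrine cells differed among themselves. Beta cell progenitor-like cells, marked by FEV and TPH1, held the highest levels of GMNN, MCM5, PCNA and UBE2S. GMNN stood at 44.9 CPM there and at 12.1 CPM in beta-like cells, MCM5 at 16.7 and 1.96 CPM, PCNA at 28.6 and 13.6 CPM and UBE2S at 167 and 92.5 CPM. The S phase members summed to 155 CPM in this progenitor-like class and to 58.5 CPM in beta-like cells, with alpha-like (83.2 CPM) and delta-like cells (62.1 CPM) between them. The share of thinned cells with at least 3 members was 13.9% (13.3 to 14.6) in beta cell progenitor-like cells and 4.47%, 2.09% and 2.40% in alpha-, delta- and beta-like cells. By the phase lists, which hold no member, the order was another one: 2.64% (2.31 to 3.02) of alpha-like cells had at least 5 UMIs of these lists, above the 1.85% (1.60 to 2.13) of beta cell progenitor-like, 0.726% of delta-like and 0.376% (0.288 to 0.483) of beta-like cells. The gap between alpha-like and progenitor-like cells rested on the DOX-labelled library (2.80% and 1.32%), since in the no-DOX-labelled library the shares were 2.52% (2.08 to 3.02) and 2.39% (1.99 to 2.85). Many cells lay at the limit: 308 alpha-like and 233 progenitor-like cells held 4 or 5 phase UMIs, beside 215 and 189 with at least 5. Over all resting cells these were 800 and 496. CKS2, a gene of the G2/M list, stood at 37.7 CPM in resting cells. The part of such a steady level in these shares was not tested.

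Of the 496 resting cells with at least 5 phase UMIs, 204 lay on the S side and held S phase members at 1504 CPM, led by PCNA (208 CPM), MCM3 (171 CPM), GMNN (162 CPM) and MCM7 (145 CPM). Another 185 lay on the G2/M side, and their G2/M members stood at 625 CPM, of which UBE2S gave 279 CPM. That sum lies far under the 10198 CPM of the G2/M side of the cycling cluster. The S side of the resting cells was nearer to that of the cycling cluster (1504 against 2529 CPM).

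The cycling cluster made up 2.11% (1.93 to 2.31) of cells in the no-DOX-labelled library and 2.03% (1.86 to 2.22) in the DOX-labelled library. With the members among the clustered genes it made up 1.15% and 0.956%, and with doublets kept no cluster met its rule. Within it, 0 of 40 members differed by 1.5-fold between the libraries, where 1.47% of 10994 genes were higher and 1.46% lower in the DOX-labelled library. Log2 ratios of DOX over no DOX ran from −0.27 (UBE2C) to 0.19 (MCM4), with a median of −0.049. Intervals lay above 0 for 4 and below 0 for 8 of the 40 members, 7 of these 8 of the G2/M list, where 8.73% of all genes lay above and 7.35% below 0. The S phase sum was level (0.0075, −0.024 to 0.039) and the G2/M sum was at −0.069 (−0.088 to −0.050), a direction that turned when the members were among the clustered genes (0.042). UBE2C (308.8 and 256 CPM, log2 −0.27, −0.36 to −0.19), CDC20 (78.2 and 67.1 CPM, −0.22, −0.39 to −0.05) and UBE2S (655 and 601 CPM, −0.13, −0.18 to −0.07) had intervals below 0. The others below 0 were CCNB1 (191 and 159 CPM, −0.26, −0.37 to −0.15), ASPM (−0.24, −0.35 to −0.13), CENPE (−0.18, −0.32 to −0.036), DLGAP5 (−0.16, −0.27 to −0.042) and RRM2 (−0.096, −0.16 to −0.029). CENPU (0.16, 0.011 to 0.31), NUSAP1 (326 and 358 CPM, 0.14, 0.06 to 0.22), MCM4 (80.6 and 92.2 CPM, 0.19, 0.04 to 0.35) and GMNN (171 and 189 CPM, 0.14, 0.04 to 0.25) had intervals above 0. With 1 library per condition, these intervals hold no spread between samples.

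The make-up of the cycling cells by phase moved with these values. The S side held 35.9% (31.4 to 40.7) of them in the no-DOX-labelled library and 42.7% (38.1 to 47.4) in the DOX-labelled library. The G2/M side held 32.9% (28.4 to 37.5) and 25.6% (21.6 to 29.9). These intervals overlap, and the part of this make-up in the small differences of single members was not tested. Median depth differed too, at 17806 and 15811.5 UMIs per cycling cell.

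In duct-like cells, 2 of 40 members were at least 1.5-fold higher in the DOX-labelled library, where 7.56% of 11057 genes were, and 0 were lower, where 9.46% were. These were CDC6 (12.6 and 23.3 CPM, log2 0.89, 0.27 to 1.54) and AURKA (32.6 and 53.1 CPM, 0.71, 0.31 to 1.10). Intervals lay above 0 for 11 of the 40, where 8.26% of genes did, and below 0 for GMNN alone (−0.16, −0.25 to −0.07), where 9.98% did. The G2/M sum was higher (0.18, 0.14 to 0.23) and the interval of the S phase sum held 0 (−0.065 to 0.057), but without GMNN the S phase sum was higher too (0.13, 0.042 to 0.21). The median log2 ratio was 0.22 over the S phase and 0.18 over the G2/M members, beside −0.0090 over all genes. The share of duct-like cells with at least 5 phase UMIs was 60.8% (52.5 to 68.7) and 68.9% (61.5 to 75.7), so the intervals overlap. A change in the number of cells with member UMIs and in the level per cell cannot be told apart in such sums. On the G2/M side, the G2/M members of duct-like cells stood at 6206 CPM (5832 to 6598, no DOX) and 5384 CPM (5100 to 5680, DOX). Between the sides they stood at 2839 and 2276 CPM, and on the S side at 1238 and 1222 CPM. In cells with some but fewer than 5 phase UMIs they stood at 243 and 270 CPM. The part of each in the sums was not tested.

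In resting endocrine cells 6 members (MCM3, MCM5, MCM7, GMNN, PCNA and UBE2S) reached 5 CPM, and 0 of these 6 differed by 1.5-fold, where 0.222% of 10365 genes were higher and 0.434% lower. The widest was MCM5 (4.87 and 5.79 CPM, log2 0.25, 0.15 to 0.35). Of these 6, intervals lay above 0 for 2 and below 0 for 2, where 29.5% and 33.6% of genes lay. Of the 34 members under 5 CPM, intervals lay below 0 for 16 (14 of the G2/M list) and above 0 for 1, where 13.6% and 13.1% of the 7817 genes between 0.1 and 5 CPM lay. Among these, RRM2 (1.71 and 1.13 CPM, −0.60, −0.81 to −0.40) and UBE2C (1.03 and 0.773 CPM, −0.41, −0.67 to −0.16) lay lower in the DOX-labelled library. The make-up of the resting class differed between the libraries, with beta-like cells at 32.1% and 42.8% of all cells kept (no DOX and DOX), alpha-like cells at 23.4% and 17.9% and delta-like cells at 12.1% and 8.40%. Resting cells with at least 5 phase UMIs made up 1.49% (1.32 to 1.67) and 1.08% (0.945 to 1.24). The part of these differences in the ratios of the members was not tested.

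**Figure D5:**
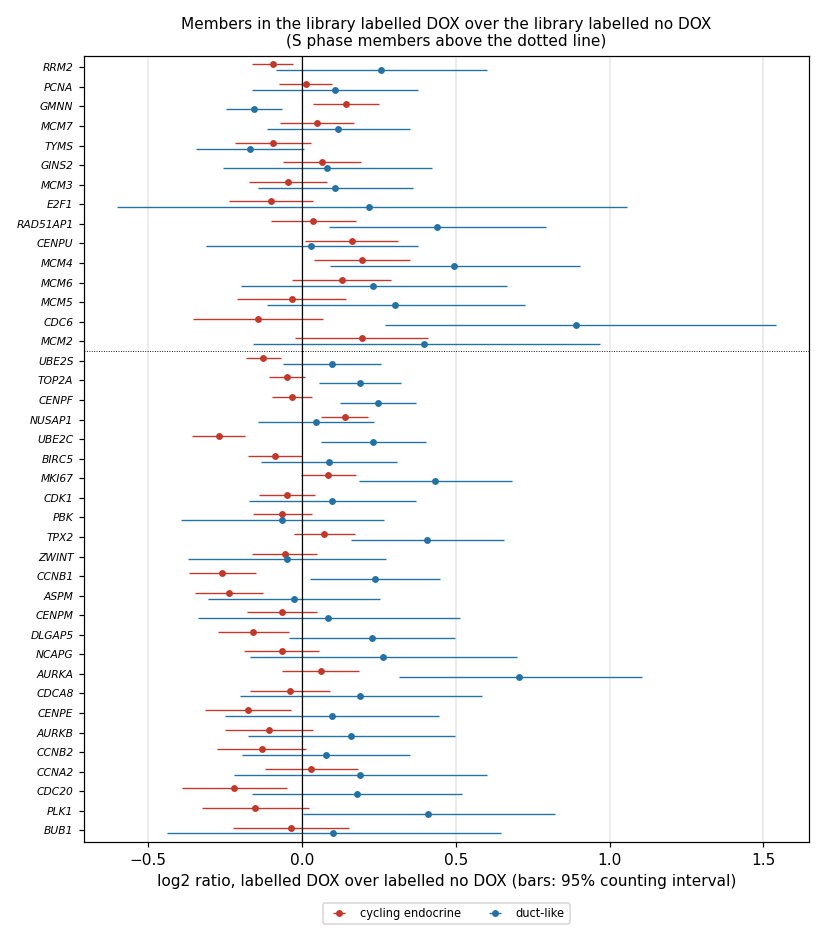
Log2 ratio of the DOX-labelled over the no-DOX-labelled library for each member in cycling endocrine and duct-like cells, with 95% intervals for counting error. The cycling cells lie within −0.27 and 0.19, most duct-like ratios lie above 0, and CDC6 and AURKA lie highest in duct-like cells.

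Other cell cycle genes were counted over whole lists. All 25 genes of the S list and 25 of 26 of the G2/M list were at least 2-fold higher in cycling than in resting cells in each library, but these lists had named the cluster. Of 33 cell cycle regulators, 32 were tested, 21 were higher and 1 was lower (CDKN1C, a CDK inhibitor, log2 −2.73). Over all 11139 genes tested, 1160 were higher and 190 lower. CKS1B, a CDK subunit, stood at 229.8 CPM in cycling, 211 CPM in duct-like and 19.99 CPM in resting cells, and CDK4, the G1 kinase, at 104, 161 and 62.7 CPM. CDKN2D, an inhibitor of CDK4, stood at 172 CPM in cycling cells, 8.22 CPM in duct-like cells and 28.1 CPM in resting cells. These regulators are named for their UMIs in cycling cells. Of the 32 tested in cycling over duct-like cells, 11 were higher and 2 lower, where 2042 and 1330 of 11807 genes were. Their log2 ratios ran from −2.29 (CDKN1C) to 5.26 (CDKN2C). RBBP4, a subunit of DREAM, varied less (206, 158 and 128 CPM).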

How the data were processed

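Single-cell libraries (10x Genomics) of live sorted eBC cells were analysed, 1 per condition. The authors deposited counts of UMIs per gene and barcode, not normalized, of 33694 genes. The file headers name Cell Ranger 3.0.2, while the submitters' processing notes list Cell Ranger 3.0, kallisto, bustools 0.40.0, Scanpy, Seurat and GRCh38, and the counter behind these tables was not settled. The tables held 30288 barcodes with 550240855 UMIs (no DOX) and 31817 with 520849221 (DOX).

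Barcodes of at least 1000 UMIs were kept. Scrublet (scanpy 1.11.5, per library, defaults) marked 26.6% of them as doublets, which were removed. Counts were scaled to 10000 per cell and log-transformed, total UMIs and mitochondrial share were regressed out of 2293 variable genes without the 40 members, and 50 components, 3 neighbours per library and Leiden clustering (leidenalg 0.10.2, resolution 0.2) gave the classes. A cluster was named where its markers of a class averaged a log2 fold of 1 or more and at least 3 were 2-fold higher; the markers are partly those the study drew from these libraries. The members, lists, thresholds and alternatives were chosen with earlier results of these data known. The named genes are the 40 members, SOX9, identity genes (INS, GCG, SST, PPY, FEV and CHGA) and the genes with most UMIs in cycling cells from each other list.

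Levels are summed UMIs per 1000000 UMIs of a class and library (CPM), with exact Poisson intervals. Ratios have exact conditional binomial intervals and shares exact Clopper-Pearson intervals (scipy 1.17.1). Genes of at least 5 CPM in a class of the comparison were tested against the fold rule, and the share of these genes with intervals above or below 0 was given beside the members; for phases it was taken from all genes of the thinned cells. The computation was tried on Poisson counts simulated from the summed classes, with no spread between cells or libraries. The direction was right for 200 of 200 changed genes in each comparison. Intervals held the truth in 95.5% for cycling over resting, 95.9% for duct-like over resting and 95.5% for cycling over duct-like cells. Such counts carry counting error alone, so these shares say nothing of the spread in the real cells. Positions are from GENCODE 44 and promoters from RefSeq on GRCh38.p14. The alternatives were other clusterings, cell filters, scalings, depths, gene sets and single libraries.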

Additional observations from a re-analysis of the deposited data

How the results depend on the processing

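With 1 library per condition no result could be checked against replicates, and duct-like cells, at 332, carried the fewest UMIs. Over the alternatives tried, 40 members were higher in cycling than in resting cells, 38 to 40 in duct-like than in resting cells (38 with doublets kept) and 18 to 29 in cycling than in duct-like cells (29 in the no-DOX-labelled library alone). A rule on 1 library is easier to pass than the same rule in each library. With doublets kept, no cluster met the rule for cycling endocrine cells, and cells with at least 5 phase UMIs were 7.83% of barcodes removed as doublets and 3.94% of those kept. With the members among the clustered genes, the cycling cluster held 471 cells, or 1.15% and 0.956% of the cells (no DOX and DOX), the S phase over G2/M log2 ratio was −1.24 in cycling and −0.88 in resting cells, the DOX over no DOX log2 ratio of the summed members turned from −0.048 to 0.042 in cycling (0.042 for the G2/M members alone, from −0.069) and from −0.029 to 0.0020 in resting cells, and the phase ratios were 1.20 (S phase members) and −2.28 (G2/M members) in cycling cells. At resolution 0.5 these were −1.34 and −0.47 for S phase over G2/M, 0.023 for DOX over no DOX in resting cells (0.011 for the G2/M members, from −0.051), turned as well, and −2.43 for the G2/M members by phase, and 3.64% of beta-like cells had 3 members. At that resolution clusters of 5852, 3952, 2715 and 2374 cells met no naming rule and were left out, and the beta-like class held 4640 cells. The resting and beta-like values of that setting are therefore from a smaller, different set of cells. With doublets kept, the resting values were −0.94 (S phase over G2/M) and −0.075 (DOX over no DOX), the duct-like phase ratio of G2/M members was −1.97, and 78.9% of duct-like and 2.67% of beta-like cells had 3 members. Without cells over 20% mitochondrial UMIs, the cycling shares were 2.46% and 2.28%, the S phase over G2/M ratios −1.32 (cycling) and −0.66 (resting) and the G2/M phase ratio −2.47.

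In the no-DOX-labelled library alone and in the DOX-labelled one alone, the S phase over G2/M ratios were −1.40 and −1.33 in cycling, −0.65 and −0.84 in duct-like and −0.65 and −0.60 in resting cells, the G2/M phase ratios in cycling cells −2.30 and −2.45, and the duct-like shares of cells with 3 members 78.4% and 88.1%. Without MCM3, MCM7 and E2F1 the S phase over G2/M ratios were −1.66, −0.97 and −1.13, and without GMNN and UBE2S, an alternative added after seeing the data, −1.32, −1.51 and 1.29 (and the phase ratio of S phase members in duct-like cells 0.84), a reversal in resting cells that follows from the share of UBE2S in their G2/M UMIs. Thinned to 2500 UMIs, 99.1% of cycling, 72.5% of duct-like and 0.613% of beta-like cells had 3 members, and the G2/M phase ratios were −2.06 (cycling) and −1.74 (duct-like). Asking for 2 or for 5 members gave 92.9% and 67.7% of duct-like and 14.5% and 0.185% of beta-like cells. With published phase lists less the members, the phase ratios were 0.51 (S phase members, cycling), −3.00 (G2/M members, cycling) and −2.69 (G2/M members, duct-like). Where no construction shows it, the cause was not tested. Leaving out barcodes shared by the libraries was added after seeing the data, as these were counted first. Of all values recomputed, 213 stayed within their interval or 1.5 times their count, 82 moved and 6 reversed, 5 of these in DOX over no DOX. No paired analysis was possible because there was 1 library per condition.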

Other observations

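The hormones of the cycling endocrine cells were a mixture. GCG, the alpha cell hormone, stood at 6136 CPM (no DOX) and 11279 CPM (DOX) in the cycling cells, whereas SST, the delta cell hormone, stood at 23088 and 11962 CPM, and PPY at 77.3 and 190 CPM. GCG and PPY were thus higher and SST lower in the DOX-labelled library. Over all resting endocrine cells PPY (42.7 and 76.1 CPM) and SST (31458 and 23364 CPM) moved the same way, while GCG was level (4545 and 4542 CPM). Within alpha-like cells GCG was higher in the DOX-labelled library (18999 and 23984 CPM), and in the other resting classes slightly lower. SST was nearly level within delta-like cells (220470 and 217155 CPM), higher in alpha-like cells (13044 and 15074 CPM) and lower in the others. PPY was higher in each resting class. The alpha-like and delta-like shares were lower in the DOX-labelled library, and their part in these values was not tested. FEV, a marker of beta cell progenitor-like cells, was at 576 and 476 CPM in the cycling cells and at 528 and 459 CPM in resting endocrine cells. The liver markers ALB, AFP, APOA1 and APOB summed to 647 CPM in duct-like, 131 CPM in cycling and 251 CPM in resting cells.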
